A study of Rattus norvegicus with 30 samples.

Results

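Cytochrome c oxidase, complex IV of the mitochondrial respiratory chain, contains small nuclear-encoded subunits of which several exist as tissue isoforms, and 10 genes of this kind were followed in rat heart: Cox4i1, Cox4i2, Cox6a1, Cox6a2, Cox6b1, Cox7a1, Cox7a2, Cox7b, Cox8a and Cox8b. Every row of the normalized tables that carried 1 of these names was taken. Of the 10 genes, 8 were found, with the same 13 rows in each table, among 18145 named rows at 8 weeks, 18290 at 21 weeks and 17702 at 78 weeks. Cox4i1, Cox6a1, Cox6a2, Cox8a and Cox8b had 2 rows each, Cox4i2, Cox7a2 and Cox7b had 1, and Cox6b1 and Cox7a1 had none, so the muscle-type Cox7a1 could not be set against Cox7a2.

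The hearts came from female and male Fischer 344 (F344) rats of 1 breeding colony that received no treatment and were fed NIH-31 diet. There were 6 groups of 5 rats, females and males of 8 weeks (young), 21 weeks (adult) and 78 weeks (old), with whole-heart total RNA labelled with Cy3 on 1 Agilent array per rat. The study compared the sexes within each age, and both sexes of an age were processed together. The ages were processed in different batches, so age and batch cannot be told apart in any comparison of ages below.

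Complex IV passes electrons from cytochrome c to oxygen. Its catalytic core is encoded by mitochondrial DNA, and nuclear-encoded subunits surround that core and tune its activity. Cox6a2, Cox7a1 and Cox8b are the forms of heart and skeletal muscle, and Cox6a1, Cox7a2 and Cox8a are their ubiquitous counterparts. Cox4i1 is the ubiquitous form of the largest nuclear subunit, and Cox4i2 is its form in lung, smooth muscle and pericytes. Cox6b1 and Cox7b are ubiquitous subunits.

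The bases before the start sites of a pair of muscle-type and a pair of ubiquitous isoforms are shown. Cox6a2, Cox8b and Cox8a enter the comparisons of isoforms within arrays, and Cox7a2 does not, since its partner Cox7a1 had no row. RefSeq promoters of the rat assembly GRCr8 were matched for 8 of the 10 genes, and Cox6a1 and Cox4i2 are named only. Each sequence holds the 250 bases before the annotated start, 5′ to 3′ on the strand of the gene, and lies at chr1:192219717-192219966 for Cox6a2, chr1:205408274-205408523 for Cox8b, chr1:213833624-213833873 for Cox8a, all on the minus strand, and chr8:89601150-89601399 for Cox7a2, also on the minus strand. Capitals mark the E-box CAGCTG, the MEF2 motif, TATAAA and the ETS core CCGGAA, which reads TTCCGG on the other strand. A MEF2 match can overlap TATAAA, though none did in these sequences.
Cox6a2: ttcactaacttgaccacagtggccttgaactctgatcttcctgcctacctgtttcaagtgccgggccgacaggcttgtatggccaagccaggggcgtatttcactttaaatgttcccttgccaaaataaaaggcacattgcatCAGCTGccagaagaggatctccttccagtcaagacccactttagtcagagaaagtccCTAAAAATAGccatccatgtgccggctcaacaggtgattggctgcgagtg
Cox8b: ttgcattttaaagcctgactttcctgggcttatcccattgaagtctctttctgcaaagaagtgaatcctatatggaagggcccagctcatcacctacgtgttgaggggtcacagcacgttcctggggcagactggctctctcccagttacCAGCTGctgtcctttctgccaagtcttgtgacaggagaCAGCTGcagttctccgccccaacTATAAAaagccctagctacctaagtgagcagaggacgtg
Cox8a: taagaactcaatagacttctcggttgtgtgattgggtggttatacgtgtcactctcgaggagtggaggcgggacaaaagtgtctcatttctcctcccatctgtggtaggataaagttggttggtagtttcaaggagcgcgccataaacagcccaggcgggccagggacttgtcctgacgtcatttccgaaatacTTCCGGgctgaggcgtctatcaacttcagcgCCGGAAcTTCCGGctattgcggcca
Cox7a2: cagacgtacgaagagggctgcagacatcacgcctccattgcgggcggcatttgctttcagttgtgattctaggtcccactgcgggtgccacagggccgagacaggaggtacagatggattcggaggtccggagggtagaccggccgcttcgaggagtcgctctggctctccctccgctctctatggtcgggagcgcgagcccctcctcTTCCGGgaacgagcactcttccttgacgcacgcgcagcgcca
Both muscle-type sequences held CAGCTG, beginning 107 bases before the start in Cox6a2 and 100 and 62 bases before it in Cox8b. Cox6a2 also held the MEF2 motif, 50 bases before the start, and Cox8b held TATAAA, 39 bases before it. The shown ubiquitous sequences held CCGGAA, at 56, 25 and 18 bases before the start in Cox8a and 42 bases before it in Cox7a2. The division did not extend to all members, since the Cox4i1 promoter held both CAGCTG and CCGGAA and those of the muscle-type Cox7a1 and the ubiquitous Cox6b1 and Cox7b held none of the 4 motifs. On either strand, CAGCTG was found in 12% of 33469 rat promoters of this length, the MEF2 motif in 2.96%, TATAAA in 12.9% and CCGGAA in 12.6%. GC content was 49.6% in Cox6a2, 51.2% in Cox8b, 52.4% in Cox8a and 63.2% in Cox7a2, against a median of 51.2% over all promoters. These matches describe the letters in the window and no more.

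The 30 arrays were alike, with pairwise correlations between 0.938 and 0.997, but their brightness differed: the 75th percentile of the processed signal ran from 39.9 to 171. All 8 cardiomyocyte markers were well above background on every array. At 78 weeks, Ddx3y and Eif2s3y of the Y chromosome ran against the sex label on 2 arrays, those labelled female replicate 2 and male replicate 3, and the main differences of the RefSeq probes and of the isoform pairs at that age are also given without them. At 21 weeks female replicate 5 had the lung gene Sftpc at 7.08 on the log2 scale, where the next array had -2.96, female replicate 2 had the fast skeletal muscle gene Myh4 at 1.89, where the next had -1.87, and male replicate 2 was the array with the lowest brightness. The lung gene Scgb1a1 was high on that first array (0.46) and on adult male replicate 4 (0.07) and old male replicate 3 (-0.67), where the next array had -3.58. Such differences at 21 weeks are also given without the 3 arrays named first.

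Levels are given on the log2 scale, as processed signal divided by the 75th percentile of its own array. They serve to compare rats for 1 probe and not to compare 1 gene with another, since probes differ in brightness. For Cox4i1, Cox6a1, Cox6a2, Cox8a and Cox8b, 1 row came from a probe annotated to the RefSeq transcript of the gene, and the remaining row is called the other row. The array design lists Cox8b under its older name Cox8h, and the other row of Cox8b is the mean of 2 probes. All RefSeq probes except that of Cox4i2 were among the 500 brightest probes. The RefSeq probe of Cox8b reached 63482 and that of Cox6a1 62639, where the scanner saturates at 65502. The Cox8b probe was saturated on 1 array, male replicate 5 at 21 weeks, and had saturated pixels on 3 arrays, in up to 75.4% of its pixels. The Cox6a1 probe was saturated on none but had saturated pixels on 3, young female replicate 1, young male replicate 2 and adult female replicate 5, in up to 33.9% of its pixels. The other rows of Cox4i1, Cox8a and Cox8b were dim, and that of Cox8a was well above background on only 17 of 30 arrays. After removal of group means, both rows of a gene correlated over the 30 arrays with 0.979 for Cox6a2, 0.855 for Cox6a1, 0.826 for Cox8b, 0.415 for Cox4i1 and 0.256 for Cox8a.

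Cox6a2, the heart and skeletal muscle form of subunit VIa, was higher in adult than in young and old hearts. In young hearts its RefSeq probe lay at 7.28, 7.30, 7.24, 7.21 and 7.42 in female replicates 1 to 5 and at 7.22, 7.23, 7.17, 7.19 and 7.36 in the males. In adult hearts it lay at 7.65, 7.90, 7.70, 7.80 and 7.85 in females and at 7.74, 8.54, 7.95, 7.86 and 8.66 in males. In old hearts it lay at 7.25, 7.12, 7.25, 7.31 and 7.37 in females and at 7.14, 7.15, 7.02, 7.24 and 6.98 in males. All 10 adult hearts were above all young and all old hearts, adult male replicates 2 and 5 were the highest, and young and old hearts overlapped. In limma over 41011 probes, the adult level was 0.70 ± 0.09 (SE) above the young one, a 1.63-fold difference (adjusted p = 1.57e-06), and the old level was 0.78 ± 0.09 (SE) below the adult one on the log2 scale (adjusted p = 2.78e-07). Young and old hearts differed by -0.08 ± 0.09 (SE, adjusted p = 0.595), or by -0.05 without the 2 old arrays. Its other row gave 0.68, -0.69 and -0.01, also with no overlap between adult hearts and the others. Of the 13 rows, 3 showed no overlap with higher adult than young hearts, where 3.44% of all probes did, and 2, both of Cox6a2, with lower old than adult hearts, where 1.55% did. Within the scan day that holds adult and old hearts, the difference of the RefSeq probe was -0.74 (adjusted p = 0.0323), and without the 3 adult arrays named above the differences were 0.62 and -0.70. Without the 2 old arrays the old level was -0.76 relative to the adult one. With normexp the differences were 0.28 and -0.69 and were not called (adjusted p = 0.367 and 0.24).

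**Figure D1:**
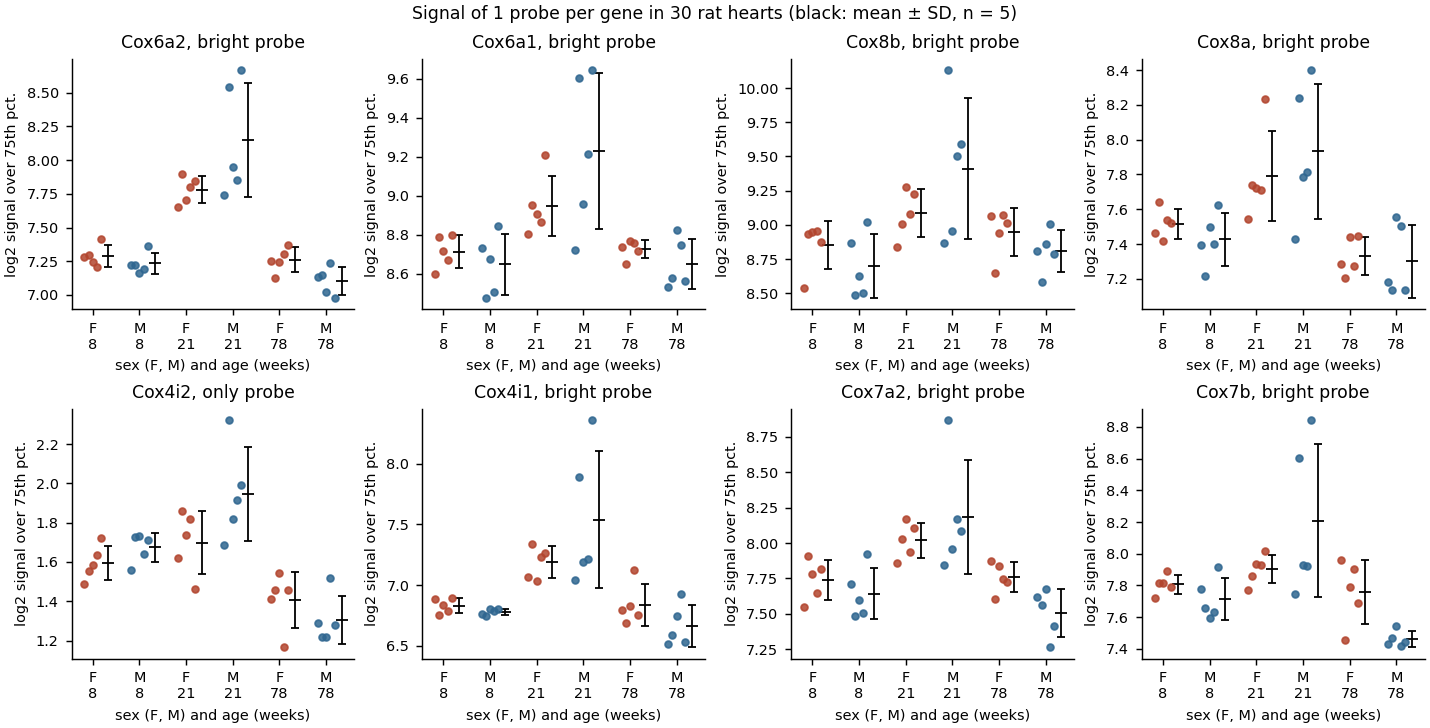
Level of 1 probe per gene in each of the 30 hearts, in log2 units relative to the 75th percentile of its own array (vertical axis, a scale of its own in each panel), by sex (F, M) and age in weeks (horizontal axis). Points are rats and black marks are the mean ± SD of 5 rats; adult males spread most, and for Cox6a2 the adult hearts, from 7.65 to 8.66, lie above all others with this scaling. With normexp background correction the higher adult level of Cox6a1, Cox8a, Cox7a2, Cox7b and Cox4i2 turns to the opposite sign.

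Cox6a1, the ubiquitous counterpart, was also higher in adult than in young hearts, but its rows differed on old hearts. Its RefSeq probe lay between 8.48 and 8.85 in young hearts (median 8.69), between 8.72 and 9.64 in adult hearts (median 8.96) and between 8.53 and 8.83 in old hearts (median 8.73). The ages overlapped, in contrast with Cox6a2. The adult level was 0.41 ± 0.09 (SE) above the young one (limma, adjusted p = 0.00125) and the old level 0.40 below the adult one (difference -0.40 ± 0.09, adjusted p = 0.00148). With quantile normalization the first of these differences was -0.12 and with normexp background correction it was -0.01, so its direction depended on the scaling. The differences were 0.32 and -0.31 without the 3 adult arrays, and the second was -0.41 without the 2 old arrays, all called. Neither was called with normexp. The other row of Cox6a1 had means of 1.93 in young, 2.31 in adult and 2.43 in old hearts, and was highest in old hearts. It was 0.38 ± 0.12 (SE) higher in adult than in young hearts (adjusted p = 0.00851), a call lost without the 3 adult arrays (0.23, adjusted p = 0.0688), 0.50 ± 0.12 higher in old than in young hearts (adjusted p = 0.00574) and 0.12 ± 0.12 higher in old than in adult hearts (adjusted p = 0.443).

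The difference between both subunit VIa isoforms within an array is free of any single factor that scales the whole array. Cox6a2 minus Cox6a1 was -1.32, -1.49, -1.47, -1.46 and -1.38 in young females and -1.51, -1.25, -1.51, -1.32 and -1.48 in young males. It was -1.15, -1.05, -1.20, -1.06 and -1.36 in adult females and -0.98, -1.06, -1.01, -1.36 and -0.98 in adult males. It was -1.48, -1.53, -1.52, -1.45 and -1.34 in old females and -1.40, -1.43, -1.80, -1.51 and -1.58 in old males. The size of these values reflects the probes as well as the genes, and only their change between groups is read. The adult mean, -1.12 ± 0.14 (SD, n = 10), was higher than the young mean of -1.42 ± 0.09 and the old mean of -1.51 ± 0.13, and in adults female replicate 5 and male replicate 4 fell within the range of the young hearts. The shift toward the muscle type was 0.30 from young to adult (permutation test, 100000 resamples, two-sided, p = 0.0002, adjusted over 9 tests 0.00045), and the shift from adult to old was -0.38 (p = 6e-05, adjusted 0.00021). Old and young hearts differed by -0.09 (permutation p = 0.0965, adjusted 0.124), or by -0.05 without the 2 old arrays. With the mean of all rows of each gene in place of 1 row, this difference was -0.30 (adjusted 9e-05) and that from adult to old -0.60 (adjusted 9e-05), both with no overlap between the ages. Within the scan day shared by adult and old hearts the shift was -0.35 (adjusted 0.0045), and it was 0.31 and -0.40 without the 3 adult arrays and -0.34 without the 2 old arrays. The shifts were 0.29 and -0.35 with normexp and 0.42 and -0.36 with quantile normalization, each with an adjusted p below 0.05.

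Cox8b, the muscle-type form of subunit VIII and also abundant in brown fat, was measured by a bright RefSeq probe and a dim other row that gave different amounts. The RefSeq probe lay between 8.49 and 9.02 in young hearts (median 8.87), between 8.84 and 10.1 in adult hearts (median 9.15) and between 8.58 and 9.07 in old hearts (median 8.90). The other row lay between -0.71 and 0.18 in young hearts (median -0.25), between 0.08 and 2.01 in adult hearts (median 0.55) and between 0.12 and 0.66 in old hearts (median 0.34). For the RefSeq probe all ages overlapped, and for the other row young male replicate 1 was the only young heart above any adult or old heart. From young to adult hearts the RefSeq probe rose by 0.47 ± 0.12 (SE, limma, adjusted p = 0.00316) and the other row by 0.98 ± 0.17 (adjusted p = 5.12e-05), but with quantile normalization the RefSeq probe differed by -0.08. From young to old hearts they differed by 0.10 ± 0.12 (adjusted p = 0.606) and 0.67 ± 0.17 (adjusted p = 0.00982). From adult to old hearts the RefSeq probe differed by -0.37 ± 0.12 (adjusted p = 0.0212) and the other row by -0.32 ± 0.17 (adjusted p = 0.164), or -0.41 without adult male replicate 3 (adjusted p = 0.0457). The RefSeq call from adult to old hearts was lost without the 2 old arrays (-0.34, adjusted p = 0.0563) and without the 3 adult arrays (-0.27, adjusted p = 0.096). From young to adult hearts the RefSeq probe differed by 0.37 and the other row by 0.81 without the 3 adult arrays, and from young to old by 0.13 and 0.69 without the 2 old arrays. Across arrays the RefSeq signal changed little with array brightness, with a slope of 0.21 of log2 signal on log2 of the 75th percentile, and the other row had a slope of -0.21, against a median of 0.60 over all probes.

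Cox8a, the ubiquitous form of subunit VIII, lay between 7.22 and 7.64 in young hearts (median 7.48), between 7.43 and 8.40 in adult hearts (median 7.76) and between 7.13 and 7.55 in old hearts (median 7.28) by its RefSeq probe. Adult male replicates 2 and 5 and adult female replicate 5 were the highest, and the ages overlapped. The adult level was 0.39 ± 0.10 (SE) above the young one (limma, adjusted p = 0.00388) and the old level fell by 0.55 from it (adjusted p = 0.000175), and the first difference was -0.02 with quantile normalization as well as with normexp. Without the 3 adult arrays the RefSeq differences were 0.29 and -0.44, and without the 2 old arrays the second was -0.56, all called. Neither was called with normexp. The other row of Cox8a passed no age test, with differences of 0.58, 0.57 and -0.01 and standard errors of 0.34.

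Within arrays, the dim Cox8b row stood for Cox8b because the bright probe was saturated on 1 array. Its median processed signal was 126, against 52248 for the bright probe, and which of them measures the gene was not tested. Cox8b minus Cox8a was -7.76 ± 0.27 (SD, n = 10) in young, -7.17 ± 0.42 in adult and -6.93 ± 0.22 in old hearts. Its values ran from -8.15 to -7.21 in young and from -7.32 to -6.61 in old hearts, with young male replicate 1 as the only young heart above any old heart. The shift was 0.59 from young to adult (permutation test, 100000 resamples, p = 0.00073, adjusted 0.00131), 0.82 from young to old (p = 5e-05, adjusted 0.00021) and 0.23 from adult to old (p = 0.14, adjusted 0.158), the last passing the test without adult male replicate 2 (0.33, adjusted 0.0132) and without the 3 adult arrays (0.31, adjusted 0.0392). With array brightness as a covariate, tested by a linear model and not by permutation, the first shift was 0.24 and did not pass (adjusted 0.166). In that model the second was 0.65 (adjusted 0.00013) and the last was 0.41 (adjusted 0.0102). Without the 3 adult arrays the first was 0.52, and without the 2 old arrays the second was 0.86 and the last 0.26. With the bright RefSeq probe in its place, a choice made after seeing the data, the shifts were 0.08 (adjusted 0.423), 0.26 (adjusted 0.00328) and 0.18 (adjusted 0.124). On the slide that holds 2 young and 2 old hearts of both sexes, Cox8b minus Cox8a shifted by 0.87 from young to old, with a difference of 0.54 in the dim Cox8b row and of -0.34 in Cox8a. The log2 sum of 7 fat markers overlapped between ages: it ran from 4.89 to 7.14 in young hearts (median 5.42), from 5.28 to 7.91 in adult hearts (median 6.09) and from 5.40 to 8.06 in old hearts (median 6.74). Elovl3 and Lep, 2 of these 7, were well above background on no array. Ucp1, the uncoupling protein of brown fat, ran from -2.74 to 6.77. Its mean was 2.91 ± 2.08 (SD, n = 10) in young, 2.58 ± 3.17 in adult and 4.52 ± 2.15 in old hearts. The part of fat in the Cox8b values was not tested.

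**Figure D2:**
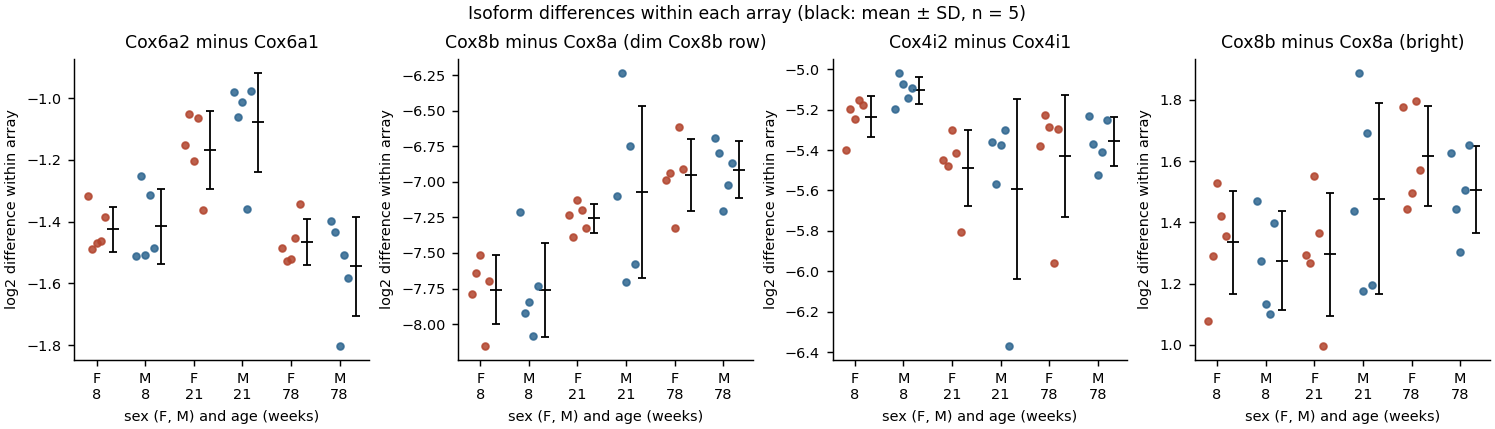
Difference between paired isoforms within each array (vertical axis, log2 units) by sex (F, M) and age in weeks (horizontal axis), with points for rats and black marks for the mean ± SD of 5 rats. Cox6a2 minus Cox6a1 is higher in adult hearts (mean -1.12) than in young (-1.42) and old hearts (-1.51); Cox8b minus Cox8a is drawn with the dim row, which shifts by 0.82 from young to old, and with the bright probe, which shifts by 0.26.

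Cox4i2, the lung and smooth muscle form of subunit IV, was lower in old hearts than at the other ages. In young hearts it lay at 1.49, 1.55, 1.59, 1.63 and 1.72 in females and at 1.56, 1.73, 1.73, 1.64 and 1.71 in males. In adult hearts it lay at 1.62, 1.86, 1.74, 1.82 and 1.46 in females and at 1.68, 2.32, 1.82, 1.91 and 1.99 in males. In old hearts it lay at 1.41, 1.46, 1.54, 1.17 and 1.46 in females and at 1.29, 1.22, 1.22, 1.52 and 1.28 in males. Only old female replicate 3 and old male replicate 4 reached into the young range, and adult male replicate 2 was the highest. Of the arrays with a high lung gene, adult female replicate 5 had the lowest adult value, 1.46. Adult male replicate 4 had 1.91 and old male replicate 3 had 1.22. The part of lung tissue in the Cox4i2 values was not tested. The old level fell by 0.28 from the young one (difference -0.28 ± 0.08, SE, limma, adjusted p = 0.018) and by 0.47 from the adult one (-0.47 ± 0.08, adjusted p = 2.78e-05). With normexp these differences were -0.37 and -0.30 and neither was called (adjusted p = 0.119 and 0.437), and within the scan day shared by adult and old hearts the second was -0.47 (adjusted p = 0.0882). It was -0.43 without the 3 adult arrays and -0.46 without the 2 old arrays, both called. The adult level was 0.19 ± 0.08 (SE) above the young one (adjusted p = 0.0405), a call lost in 10 of 30 fits that left out 1 rat (young females 1 to 3, young males 1 and 4, adult females 2 to 4 and adult males 2 and 5, with a lowest value of 0.14), in the fit without the 3 adult arrays and with quantile normalization as well, and -0.08 with normexp. On the slide with 2 young and 2 old hearts the difference between them was -0.36, and without the 2 old arrays it was -0.27 over all young and old hearts (adjusted p = 0.0445). Ordered by level, old hearts were lowest, then young, then adult, and young and adult hearts overlapped in range.

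The smooth muscle and pericyte markers overlapped between ages in sum: the log2 sum of the 7 genes measured of 8 listed ran from 6.41 to 6.57 in young, from 6.48 to 6.99 in adult and from 6.27 to 6.78 in old hearts. Single genes differed: from young to old hearts the mean of the pericyte marker Rgs5 went from 2.64 ± 0.08 (SD, n = 10) to 2.24 ± 0.10, that of Kcnj8 from 4.66 ± 0.08 to 4.38 ± 0.14 and that of Pdgfrb from 3.67 ± 0.10 to 3.33 ± 0.14. The mean of Myh11, the smooth muscle myosin, went from 3.22 ± 0.24 to 3.70 ± 0.40. Those of Tagln (2.65 to 2.99), Cnn1 (-1.80 to -1.44) and Notch3 (4.95 to 5.05) also went up. From adult to old hearts the means of Rgs5 (2.75 to 2.24), Kcnj8 (4.66 to 4.38), Tagln (3.08 to 2.99) and Notch3 (5.58 to 5.05) went down. Those of Pdgfrb (2.70 to 3.33), Myh11 (2.39 to 3.70) and Cnn1 (-1.76 to -1.44) went up. The part of these cells in the Cox4i2 values was not tested. In whole-heart RNA, fewer cells of a type and less RNA per cell cannot be told apart.

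Cox4i1, the ubiquitous form of subunit IV, was higher in adult hearts by its RefSeq probe, which lay between 6.75 and 6.89 in young (median 6.79), between 7.03 and 8.36 in adult (median 7.22) and between 6.52 and 7.13 in old hearts (median 6.75). All adult hearts were above all young ones, and adult male replicates 2 and 5, at 7.89 and 8.36, were the highest. The adult level was 0.56 ± 0.12 (SE) above the young one (limma, adjusted p = 0.000499) and the old level fell by 0.61 from it (adjusted p = 0.000169), and the young and old levels differed by -0.06 ± 0.12 (adjusted p = 0.787), or by -0.05 without the 2 old arrays. The SD was 0.05 in young, 0.43 in adult and 0.19 in old hearts, and the fit held a single variance for all groups. The dim other row did not follow: it was 0.76 ± 0.18 (SE) higher in adult (adjusted p = 0.00158) and in old hearts (adjusted p = 0.00598) than in young ones and differed by 0.01 between adult and old. All old hearts were above all young ones in this row. For the RefSeq probe the differences were 0.48 and -0.53 without the 3 adult arrays and the second was -0.61 without the 2 old arrays, all called. Neither difference of this probe was called with normexp, and the first was not called in limma with array brightness as a covariate. Both rows carry the same gene name, and which of them measures the gene was not tested.

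Cox4i2 minus Cox4i1 was -5.17 ± 0.11 (SD, n = 10) in young, -5.54 ± 0.33 in adult and -5.39 ± 0.22 in old hearts. Adult male replicate 5, at -6.37, and old female replicate 4, at -5.96, were the lowest, and the ages overlapped. The shift away from Cox4i2 was -0.37 from young to adult (permutation test, 100000 resamples, p = 7e-05, adjusted 0.00021), -0.22 from young to old (p = 0.00178, adjusted 0.00267) and 0.15 from adult to old (p = 0.267). The first shift was -0.16 with normexp and -0.06 with quantile normalization (adjusted 0.43 and 0.497), and the second was 0.04 with normexp (adjusted 0.829). Neither passed in a linear model with array brightness as a covariate (-0.33, adjusted 0.052, and -0.20, adjusted 0.152). Without the 2 old arrays the second was -0.23 (adjusted 0.00309) and the last 0.14, and without the 3 adult arrays the first was -0.34 (adjusted 0.000694) and the last 0.12.

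Cox7a2, the ubiquitous form of subunit VIIa, and Cox7b, a ubiquitous subunit, had 1 bright probe each and followed the same order of ages. Cox7a2 lay between 7.48 and 7.92 in young (median 7.68), between 7.85 and 8.87 in adult (median 8.05) and between 7.27 and 7.87 in old hearts (median 7.65). Cox7b lay between 7.59 and 7.92 in young (median 7.78), between 7.75 and 8.84 in adult (median 7.93) and between 7.41 and 7.96 in old hearts (median 7.51). The ages overlapped for both genes. From young to adult hearts Cox7a2 differed by 0.41 ± 0.10 (SE, limma, adjusted p = 0.00186) and Cox7b by 0.30 ± 0.10 (adjusted p = 0.0202), but with quantile normalization by -0.02 and -0.13. From adult to old hearts they fell by 0.47 (adjusted p = 0.000526) and 0.45 (adjusted p = 0.00146). Without the 3 adult arrays Cox7a2 differed by 0.31 and -0.37, both called, and Cox7b by 0.23, a call lost (adjusted p = 0.0948), and -0.39. Without the 2 old arrays the differences from adult to old were -0.47 and -0.42, both called. Neither gene was called with normexp from young to adult or from adult to old hearts.

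Of the 13 rows, 12 were called at an adjusted p below 0.05 from young to adult hearts, all of them higher in adults, where 53.5% of all 41011 probes were called, 39% higher and 14.6% lower. The share of the rows was above that background, but the median of all probes was itself 0.28 higher in adults, so that Cox6a2 stood 0.42 above it, the RefSeq probe of Cox4i1 0.28, that of Cox6a1 0.12, Cox7b 0.01, and Cox4i2 0.10 below it (relative difference -0.10). With quantile normalization the median of all probes was 0.05 higher, 7 rows were called, 6 higher and 1, Cox7b, lower in adults (31.2% of all probes), and 5 rows had the opposite sign, whereas Cox6a2 was 0.30 and 0.39 higher by its 2 rows. With normexp 2 rows were called (6.29% of all probes), the dim other rows of Cox4i1 and Cox8b, and without the 3 adult arrays 9 were (42.4%). From adult to old hearts 9 rows were called, all lower in old hearts, where 29.9% of probes were called, 16.7% lower and 13.2% higher, with a median of -0.17. The count was 8 without the 2 old arrays (27.4% of all probes) and 8 without the 3 adult arrays (24.8%), 5 with quantile normalization (30.9%), 0 with normexp (2.66%) and 1 within the scan day shared by these ages (5.07%). With normexp 3 of the 13 rows and 4177 of the 41011 probes had an unadjusted p below 0.05. From young to old hearts 4 rows were called, where 8.86% of probes were called, 4.78% higher and 4.08% lower. They were Cox4i2, lower in old hearts, and the other rows of Cox4i1, Cox6a1 and Cox8b, higher by 0.76, 0.50 and 0.67, and in 2 of these rows, Cox4i1 and Cox6a1, young and old hearts did not overlap, where 0.91% of all probes did so. The count was 4 without the 2 old arrays (7.2% of all probes) and within the scan day shared by young and old hearts (22.7%), 7 with quantile normalization, 3 higher and 4 lower in old hearts (10.8%), and 2 with normexp, both higher (1.72%). The RefSeq probes of these last genes differed by -0.06, 0.01 and 0.10, so that the call rested on the row. The adult arrays enter both the first and the second of these comparisons.

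**Figure D3:**
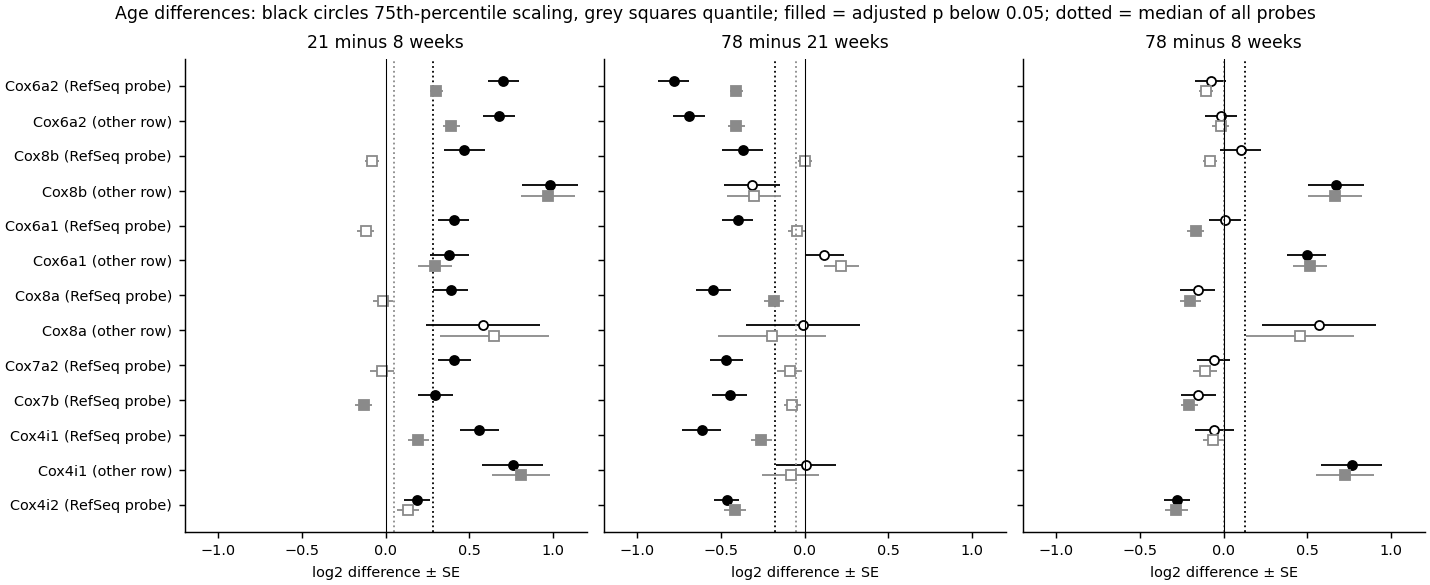
Differences between ages for the 13 rows (horizontal axis, log2 units, bars ± SE of the limma fit), with black circles for 75th percentile scaling, grey squares for quantile normalization, filled marks for an adjusted p below 0.05 and dotted lines for the median of all 41011 probes. Both rows of Cox6a2 lie to the right of zero from 8 to 21 weeks and to the left of it from 21 to 78 weeks with either scaling, whereas 5 rows change side from 8 to 21 weeks when quantile normalization is used. With normexp background correction no row is called from 21 to 78 weeks.

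Array brightness moved with age, since the adult male arrays were dim, with a 75th percentile of 39.9 to 105 (median 72.1), against medians of 106 in adult females, 118 and 125 in young females and males and 104 and 108 in old ones. Adult male replicate 2 was the highest of the 30 arrays in 7 of the 13 rows and replicate 5 in 6. The slope of log2 signal on log2 of the 75th percentile was 0.30 for Cox6a2, 0.44 for Cox6a1, 0.39 for Cox4i1, 0.43 for Cox7a2, 0.51 for Cox7b, 0.52 for Cox8a and 0.68 for Cox4i2, and its median was 0.47 over the 500 brightest probes. With brightness as a covariate, a fit chosen after seeing the data, 3 rows were called from young to adult hearts, both rows of Cox6a2 at 0.52 and 0.49 and the other row of Cox8b at 0.42, where 15.9% of all probes were called. In that fit 10 rows were called from adult to old hearts, 8 lower and 2 higher (26.7% of all probes) and 4 from young to old (7.85%). The shift of Cox6a2 against Cox6a1 was 0.36 from young to adult in a linear model with this covariate (t test, adjusted 0.000122). Of the cell markers, the log2 sum of the 8 cardiomyocyte genes was 11.6 ± 0.21 (SD, n = 10) in young, 12.1 ± 0.42 in adult and 11.7 ± 0.18 in old hearts, although Ryr2, 1 of the 8, went the other way with means of 6.30, 5.30 and 6.49. Pln (7.66, 8.09 and 7.24) and Myl2 (8.07, 8.47 and 7.90) were highest in adults but, unlike the sum, lower in old than in young hearts. The sum of 4 fibroblast genes was 8.62 ± 0.13, 7.88 ± 0.13 and 7.86 ± 0.24, that of 4 leukocyte genes 6.20 ± 0.10, 6.76 ± 0.32 and 6.16 ± 0.21, and that of 4 endothelial genes 6.95 ± 0.15, 6.43 ± 0.44 and 6.78 ± 0.11. These sums are of linear signal, so the brightest genes carry them. Of the fibroblast genes, Dcn was highest in adults (means 6.40, 6.73 and 6.48) and Pdgfra had 3.55, 3.08 and 3.56. Of the leukocyte genes, Cd74 had 6.13, 6.70 and 6.06, Cd68 1.83, 2.12 and 2.22 and Ptprc -2.80, -2.90 and -2.88. Of the endothelial genes, Kdr and Pecam1 were lowest in adults, and Cdh5 (-1.11, -1.61 and -1.84) and Tie1 (-0.41, -0.65 and -1.12) in old hearts. The 10 skeletal muscle genes summed to 0.52 to 1.26 in young, 0.39 to 4.60 in adult and 0.32 to 1.67 in old hearts. Their part in the values of the isoforms was not tested.

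Between the sexes no row passed the test at any age. In young rats 0 of 13 rows were called, where 0.105% of all named rows were, and 12 of 13 were higher in females, by at most 0.25, of which 4 changed sign with quantile normalization. Young females and males overlapped in every row. Cox6a2 differed by 0.04 ± 0.06 (SE, female minus male, limma, adjusted p = 0.949), Cox6a1 by 0.05 ± 0.08 (adjusted p = 0.953), the RefSeq probe of Cox8b by 0.14 ± 0.13 (adjusted p = 0.907) and Cox4i2 by -0.09 ± 0.06 (adjusted p = 0.902). Neither limma nor the methods' ANOVA gave any of the 13 rows an unadjusted p below 0.05. In limma 1142 of 18145 named rows had one.

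In adult rats 0 of 13 rows were called as well, where 0.0383% of all named rows were, and 12 were lower in females, with differences from -0.16 to -0.43. The median of all named rows was -0.16. Cox6a2 was -0.38 ± 0.18 (SE, limma, adjusted p = 0.318) and its other row -0.43 ± 0.19 (adjusted p = 0.305), Cox4i2 was -0.26 ± 0.14 (adjusted p = 0.352) and Cox8a -0.16 ± 0.19 (adjusted p = 0.654). The direction depended on the processing: 12 of 13 rows changed sign with normexp, 6 with brightness as a covariate and 4 with quantile normalization. Without the 3 adult arrays no row was called either and 12 of 13 were lower in females, with a median of -0.17 over the 13 rows against -0.32 with them, and Cox6a2 was -0.33, Cox4i2 -0.13 and Cox8a -0.20. Neither limma nor the methods' ANOVA gave any of the 13 rows an unadjusted p below 0.05 at this age. In limma 2989 of 18290 named rows had one.

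In old rats 0 of 13 rows were called, where 0% of all named rows were, and 10 were higher in females. Cox7b lay at 7.96, 7.46, 7.79, 7.90 and 7.69 in females and at 7.43, 7.47, 7.54, 7.42 and 7.44 in males. Every female except replicate 2, 1 of the 2 arrays set apart, was above every male, and male replicate 3, also set apart, was the highest male. The share of all probes that separate in this way was not counted, here or for Cox7a2 below. Cox7b differed by 0.28 ± 0.10 (SE), 1.21-fold higher in females (limma, adjusted p = 0.806), and by 0.37 ± 0.10 without the 2 arrays (adjusted p = 0.353). Cox7a2 lay at 7.87, 7.61, 7.84, 7.74 and 7.73 in females and at 7.62, 7.56, 7.68, 7.27 and 7.41 in males, with female replicate 2 alone below any male. It differed by 0.23 ± 0.11 (SE, limma, adjusted p = 0.806), and by 0.31 ± 0.12 without the 2 arrays (adjusted p = 0.495).

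Cox8a gave unlike answers by its rows at this age. The dim other row lay at -3.04, -2.87, -2.50, -2.81 and -3.09 in females and at -3.77, -3.09, -3.67, -3.35 and -4.24 in males. All females were above all males, where 0.422% of all probes showed this, but the row was well above background in 5 of 5 females and only 1 of 5 males. The difference was 0.74 ± 0.20 (SE, limma, adjusted p = 0.806), or 0.73 without the 2 arrays. The bright RefSeq probe differed by 0.01 ± 0.11 (adjusted p = 0.987), or 0.10 without these arrays. Of the muscle-type genes, Cox6a2 differed by 0.14 ± 0.08 (adjusted p = 0.806) and the RefSeq probe of Cox8b by 0.12 ± 0.11 (adjusted p = 0.841), or by 0.15 and 0.20 without the 2 arrays. In limma 2 of 13 rows, Cox7b and the other row of Cox8a, had an unadjusted p below 0.05, where 1065 of 17702 named rows did. In the methods' ANOVA 4 of 13 rows did, with Cox7a2 and Cox6a2 added. The count over all named rows is not given for that ANOVA, so these 4 rows have no background to be read against. With normexp 10 of 13 rows changed sign. Without the 2 arrays 11 rows were higher in females and no row was called either, where 0.0169% of all named rows were.

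**Figure D4:**
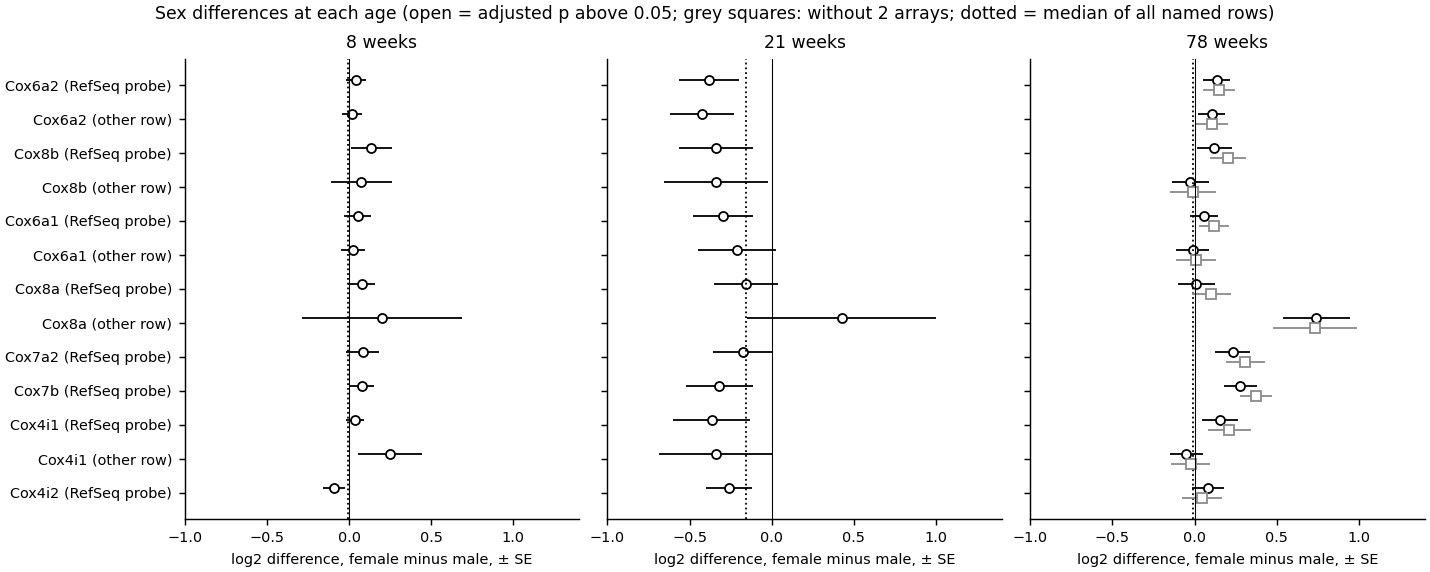
Differences between females and males at each age for the 13 rows (horizontal axis, log2 units, bars ± SE of the limma fit), with grey squares for 78 weeks after leaving out the 2 arrays whose Y-linked genes ran against the label, and dotted lines for the median of all named rows. No mark is filled because no row had an adjusted p below 0.05; at 21 weeks 12 of 13 rows lie below zero, as does the median of -0.16, and with normexp background correction 12 rows change sign at 21 weeks and 10 at 78 weeks.

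Within arrays the isoform differences did not separate the sexes. Cox6a2 minus Cox6a1 differed by -0.01 in young (exact permutation test, two-sided, p = 0.857), -0.09 in adult (p = 0.333) and 0.08 in old hearts (p = 0.397). Cox8b minus Cox8a differed by 0.00 (exact permutation p = 1), -0.18 (p = 0.532) and -0.04 (p = 0.786). Cox4i2 minus Cox4i1 differed by -0.13 (exact permutation p = 0.0397, adjusted over 9 tests 0.357), 0.10 (p = 0.754) and -0.07 (p = 0.778). Without the 2 arrays the differences in old hearts were 0.03, -0.11 and -0.17, and without the 3 arrays those in adult hearts were -0.06, 0.09 and 0.21, none passing the test. With 5 rats a sex the smallest exact p is 0.0079. The sexes of every age overlapped in all 3 differences.

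Whether the sex difference itself changed with age was tested in the fit of all 30 arrays. No row was called, where 0.00244% of probes were from 8 to 21 weeks, 0% from 8 to 78 weeks and 0.00244% from 21 to 78 weeks. The smallest unadjusted p-values, from 21 to 78 weeks, were those of Cox7b, with a change of 0.60 ± 0.21 (SE, limma, adjusted p = 0.265), and Cox6a2, with 0.53 ± 0.18 (adjusted p = 0.265). In that comparison 6 of 13 rows and 5522 of all 41011 probes had an unadjusted p below 0.05. All 13 rows changed toward higher female levels in that comparison, and 11 of 13 the other way with normexp. The median of all probes changed by 0.22 in the same comparison. From 8 to 21 weeks 2 of 13 rows and 7086 of all probes had an unadjusted p below 0.05. From 8 to 78 weeks no row did, where 1036 probes did.

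Of the other subunits of the complex, 7 of 9 listed genes had 11 probes. From young to adult hearts 7 of the 11 probes were called higher and 1 lower, where 39% of all probes were called higher and 14.6% lower. Cox5b, a subunit on the matrix side, differed by 0.69, Ndufa4, an accessory subunit, by 0.51, Cox6c by 0.41, Cox7a2l, a factor of supercomplexes, by 0.37, and Cox5a by 0.30 or more in its 2 probes. Cox6b2, the testis form of subunit VIb, was higher in 1 probe (0.66) and not called in the other (-0.50), and Cox7c was lower in 1 of 3 probes (-0.58) and not called in the others (0.54 and -0.19). From adult to old hearts Cox7a2l (-0.54) and Ndufa4 (-0.37) were lower and 1 probe of Cox7c (0.59) was higher, where 16.7% of all probes were called lower and 13.2% higher, and from young to old hearts Cox5b alone was called (0.69), where 4.78% were called higher and 4.08% lower. The median of the 11 probes was 0.41, -0.23 and 0.13 in these comparisons, beside 0.28, -0.17 and 0.13 over all probes. Between the sexes none of the 12 rows of this list was called at any age. Only the main processing is given for this list. Whether its calls hold with normexp, quantile normalization, brightness as a covariate or fewer arrays was not tested.

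Of the genes of assembly and copper delivery, 11 of 24 had 14 probes. From young to adult hearts 5 of the 14 probes were called higher, a share near the 39% of all probes called higher, and none lower, where 14.6% were: Cox17 (0.73), a copper chaperone, Cmc1 (0.62), Cox18 (0.43), which inserts Cox2 into the membrane, Sco1 (0.41), which delivers copper, and Surf1 (0.40), an assembly factor. From adult to old hearts these 5 were lower, with differences of -0.46, -0.45, -0.60, -0.38 and -0.43, as were Cox19 (-0.78) and Cox16 (-0.48), and 1 probe of Lrpprc, which stabilises mitochondrial mRNA, was higher (0.76), where 16.7% of all probes were called lower and 13.2% higher. The second probe of Cox18 gave -0.02 and -0.08 in these comparisons and that of Lrpprc 0.37 in the last, none called. The median was 0.17 and -0.23 beside 0.28 and -0.17 over all probes, and none of the 14 was called from young to old hearts. None of the 15 rows of this list was called between the sexes. Here too only the main processing is given, and whether the calls depend on it was not tested.

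After removal of group means, the genes whose log2 levels followed Cox6a2 most closely over the 30 arrays, among 6812 names, were Mrpl30 (Pearson r 0.957), RGD1560451 (0.952) and Rpl36 (0.947). For the other row of Cox8b they were Tpm3 (0.946), Nppa (0.929) and Rps29 (0.926), and for Cox4i2 they were Rpl36al (0.842), LOC310926 (0.833) and Actg1 (0.824). The median correlation over all names was 0.31, 0.14 and 0.15. The 30 points share array brightness and, within an age, the batch.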

How the data were processed

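Total RNA of 30 rat hearts, 5 in each of 6 groups of sex and age given by the labels, was measured on 1-colour Agilent arrays. Per the file headers, Feature Extraction 9.5.1.1 read arrays scanned on a GenePix 4000B, and the array design cites the rat build rn3. Per their methods, the authors averaged probe intensity per gene, removed genes not expressed and scaled each array to its 75th percentile, and deposited these linear intensities in 1 table per age. The tables nevertheless hold several rows for some gene names, most of which match a single probe, so that they are not averages per gene. The deposited scanner intensity values had been corrected for background by the extraction software. The tables are not comparable between ages, since they were processed separately, so that sexes were compared within a table and ages on the scanner values.

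Sexes were compared with limma 3.58.1 in R 4.3.3 on log2 of the deposited table intensities over all named rows. Ages and the change of the sex difference with age were compared with limma on log2 processed signal minus the 75th percentile of the array, over 41011 probes of all 30 arrays. That fit holds a single variance per probe for all groups, so the wide spread of adult males also enters the standard errors between young and old hearts. P-values were adjusted by the Benjamini-Hochberg method over all features, with a threshold of 0.05. Differences between paired isoforms within an array were compared by two-sided permutation tests, exact between sexes and with 100000 resamples between ages, adjusted over 9 tests each, since Cox7a1 had no row, with python 3.11.15, numpy 2.4.6, pandas 2.3.3 and scipy 1.17.1. Where an alternative covered only some of the 9 tests, the main p-values stood for the rest in the adjustment. A gene was represented by its brightest row well above background on every array and saturated on none. The columns of adult males carry no usable number, so values of single rats come from the scanner files. Of the named rows, 83.0% to 83.5% matched a probe of the scanner files within 0.002 on the log2 scale. Columns of other samples numbered 0. The scripts were tested on simulated data.

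Alternatives were normexp background correction (offset 50), the raw median signal, quantile normalization, the methods' ANOVA, a filter on background, slide and replicate blocks, the mean or the first of the rows of a gene, the values rebuilt from the scanner files, leaving out 1 rat, leaving out the 2 arrays of 78 weeks between sexes, values within a scan day and within a shared slide. Brightness as a covariate, leaving out 3 arrays of 21 weeks, leaving out the 2 arrays between ages and the RefSeq probe for Cox8b were chosen after seeing the data. Replicate numbers paired the sexes at 78 weeks, where the deviations of same-numbered rats correlated between 0.14 and 0.30 in 5 of 5 pairs, and shared a slide. By rule, all members were named, other subunits and assembly genes where they passed the test, and the 3 genes most correlated with Cox4i2, Cox6a2 and Cox8b after removal of group means. The members and the gene lists were chosen with earlier results of these data known. The number of arrays limits the precision.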

Additional observations from a re-analysis of the deposited data

Results flagged for a closer look

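In 6 of 96 groups of 5 rats, 1 rat lay far from the other 4 by a test of the gap relative to the range, which chance alone does in about 1 of 20 groups. For Cox4i2, male replicate 4 at 78 weeks lay at 1.52, and the others lay between 1.22 and 1.29. For the RefSeq probe of Cox8a, female replicate 5 at 21 weeks, the array with the lung gene Sftpc, lay at 8.23, and the others between 7.54 and 7.74. For the RefSeq probe of Cox8b, female replicate 1 at 8 weeks lay at 8.54, and the others between 8.88 and 8.96. Cox4i2 minus Cox4i1 was -5.96 in female replicate 4 at 78 weeks, against -5.38 to -5.23 in the others, and -6.37 in male replicate 5 at 21 weeks, against -5.57 to -5.30. Cox6a2 minus Cox6a1 was -1.36 in male replicate 4 at 21 weeks, against -1.06 to -0.98 in the others.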

How the results depend on the processing

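The count of member rows past the threshold was 12 from 8 to 21 weeks, 4 from 8 to 78 weeks and 9 from 21 to 78 weeks. In this order it was 2, 2 and 0 with normexp, 7, 7 and 5 with quantile normalization, and 3, 4 and 10 with brightness as a covariate, and 1 from 21 to 78 weeks within the second scan day. Between the sexes it was 0 in every setting run. Leaving out 1 rat gave 11 to 12, 4 and 9 to 10 rows. With the replicate number as a block the counts were 12, 4 and 9 for the ages and 0 for the sexes, so the replicate block changed no count. At 8 weeks the same-numbered rats correlated between -0.21 and 0.19 and at 21 weeks between -0.15 and 0.56, where they shared a slide and the correlations did not pair them. From 8 to 21 weeks the sign turned with normexp for Cox7b (-0.13), Cox8a (-0.025), Cox4i2 (-0.079), Cox7a2 (-0.066) and Cox6a1 (-0.012), and with quantile normalization for Cox7b (-0.13), Cox8a (-0.016), Cox7a2 (-0.022), Cox8b (-0.081) and Cox6a1 (-0.12). With quantile normalization Cox6a1 was -0.17 from 8 to 78 weeks and Cox8b 0.0012 from 21 to 78 weeks.

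Cox6a2 minus Cox6a1 kept its call and direction from 8 to 21 and from 21 to 78 weeks in every setting run. From 8 to 78 weeks it was 0.061 with quantile normalization and -0.30 with the mean of all rows, which passed the threshold. Between the sexes, where no setting passed, it was 0.0027 with the raw median and 0.019 with quantile normalization at 8 weeks and -0.12 with normexp and with the raw median at 78 weeks. Cox8b minus Cox8a from 8 to 21 weeks was 0.081 with RefSeq probes and 0.24 with brightness as a covariate, neither past the threshold, and from 21 to 78 weeks -0.12 with quantile normalization, 0.31 without 3 arrays and 0.41 with the covariate, the last 2 past it. Between the sexes it was 0.037 (normexp), 0.0080 (raw median), 0.067 (quantile), 0.030 (mean of all rows) and 0.059 (RefSeq probes) at 8 weeks, 0.093 without 3 arrays at 21 weeks, and 0.25 (normexp), 0.044 (quantile), 0.036 (mean of all rows) and 0.11 (RefSeq probes) at 78 weeks. Cox4i2 minus Cox4i1 was -0.16 (normexp), -0.063 (quantile) and -0.33 (covariate) from 8 to 21 weeks, none past the threshold, 0.036 (normexp), -0.15 (raw median), -0.23 (slide as random block) and -0.20 (covariate) from 8 to 78 weeks, none past it, and -0.16 with quantile normalization and with the mean of all rows from 21 to 78 weeks. Between the sexes it was -0.41 (normexp), -0.20 (raw median) and -0.12 (quantile) at 21 weeks and 0.0095 (normexp), 0.13 (first row of each name) and 0.030 (mean of all rows) at 78 weeks. The cause of these changes was not tested.

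Leaving out 1 rat, the sex difference of Cox6a2 minus Cox6a1 at 8 weeks ran from -0.038 to 0.030, that of Cox8b minus Cox8a from -0.081 to 0.14, -0.34 to 0.025 and -0.12 to 0.055 at 8, 21 and 78 weeks, and that of Cox4i2 minus Cox4i1 from -0.089 to 0.18 and -0.12 to 0.060 at 21 and 78 weeks. From 21 to 78 weeks Cox8b minus Cox8a ran from 0.17 to 0.33, with the highest value, past the threshold, without male replicate 2 of 21 weeks. Ages lie in different batches, bright probes approach saturation, dim rows approach background, and 5 rats a sex limit the precision.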
